A study of Homo sapiens with 6 samples.

Results

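Binding of SWI/SNF, a complex that remodels chromatin, was examined at 10 genes of the epithelial-mesenchymal transition, out of 20037 protein-coding genes. The genes were CDH1, CDH2, VIM, FN1, TNC, ZEB1, ZEB2, SNAI2, TWIST1 and TGFBR2. A peak was counted at a gene when its summit, the position of highest signal, lay within the RefSeq gene span or within 100 kb of either end. By this rule the genes held 45 of 36174 LNCaP BRG1 peaks, 31 of 25706 LNCaP SMARCC2 peaks, 46 of 44308 MR49F BRG1 peaks and 53 of 47615 MR49F SMARCC2 peaks.

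The lists come from ChIP-seq, which sequences the DNA precipitated with an antibody against a chromatin protein. BRG1 is the ATPase of SWI/SNF that SMARCA4 encodes, and SMARCC2 is a scaffold subunit of the same complex. LNCaP is an androgen-sensitive human prostate cancer line, and MR49F is an LNCaP derivative resistant to the androgen receptor antagonist enzalutamide. The series design sets enzalutamide-sensitive cells against resistant ones, so the comparison asks where the complex sits in each. LNCaP was kept in RPMI medium with serum and antibiotics; MR49F had the same medium plus 10 µM enzalutamide. Both were fixed in the same way, with 2 mM DSG followed by 1% formaldehyde. Resistance and drug exposure cannot be told apart in this design, and each line is a single line. There was 1 library for each of the 4 combinations of line and antibody, so no value below has a replicate error and no difference was tested. The 2 input samples were not analysed here. Where a list has no peak, the signal in that library fell short of the peak caller's cut-off, and in bulk cells weaker binding cannot be told apart from binding in fewer cells.

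In the epithelial-mesenchymal transition, epithelial cells loosen their junctions and acquire a migratory, matrix-producing state. The transcription factors ZEB1, ZEB2, SNAI2 and TWIST1 drive it, in part by repressing CDH1, and TGF-beta acting through its receptor TGFBR2 is a classical inducer. CDH1 encodes E-cadherin, the adhesion molecule of epithelial junctions, and CDH2 encodes N-cadherin, its mesenchymal counterpart. VIM encodes the intermediate filament vimentin, while FN1 and TNC encode the matrix glycoproteins fibronectin and tenascin-C. LNCaP is an epithelial line, and loss of epithelial features has been linked to resistance against androgen receptor blockade in prostate cancer.

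Promoter sequences are shown for the 4 members whose RefSeq promoter entry was overlapped by a peak, because the lists differed in which of these starts they overlapped. Each entry runs from 250 bases before to 50 bases after an annotated start in GRCh38.p14, is printed 5′ to 3′ on the strand of the gene, and is credited to RefSeq. Of the 10 members, 7 matched an entry. Capitals mark every match to 3 motifs searched on both strands with overlapping matches kept: CACCTG, an E-box that ZEB and SNAI proteins recognise, TGANTCA, the AP-1 motif, and GGGCGG, the GC box. Among 22199 entries of protein-coding genes, 19.9% held the E-box, 6.15% the AP-1 motif and 56.3% the GC box. ZEB1 and TGFBR2 have several annotated starts, and the entry shown for each is one that all lists with a peak at that start overlap.
FN1 promoter, chr2:215436019-215436318, minus strand: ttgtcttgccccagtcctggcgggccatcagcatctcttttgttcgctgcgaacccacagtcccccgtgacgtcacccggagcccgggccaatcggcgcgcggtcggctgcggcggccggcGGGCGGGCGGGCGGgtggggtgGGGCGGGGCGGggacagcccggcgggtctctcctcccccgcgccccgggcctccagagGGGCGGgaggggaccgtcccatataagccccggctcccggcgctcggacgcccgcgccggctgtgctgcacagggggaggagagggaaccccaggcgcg
TNC promoter, chr9:115118108-115118407, minus strand: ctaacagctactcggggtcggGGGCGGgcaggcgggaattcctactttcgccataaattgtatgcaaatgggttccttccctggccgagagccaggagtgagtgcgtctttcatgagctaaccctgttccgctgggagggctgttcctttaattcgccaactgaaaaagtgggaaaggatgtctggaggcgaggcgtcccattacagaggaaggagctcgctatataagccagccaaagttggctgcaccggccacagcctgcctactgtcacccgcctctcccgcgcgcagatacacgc
ZEB1 promoter, chr10:31318568-31318867, plus strand: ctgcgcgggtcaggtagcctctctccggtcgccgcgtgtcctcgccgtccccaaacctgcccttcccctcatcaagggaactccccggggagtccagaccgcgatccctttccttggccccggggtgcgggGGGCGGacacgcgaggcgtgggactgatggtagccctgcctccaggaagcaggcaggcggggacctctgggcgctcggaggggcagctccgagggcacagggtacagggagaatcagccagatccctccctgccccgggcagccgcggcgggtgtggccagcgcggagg
TGFBR2 promoter, chr3:30606351-30606650, plus strand: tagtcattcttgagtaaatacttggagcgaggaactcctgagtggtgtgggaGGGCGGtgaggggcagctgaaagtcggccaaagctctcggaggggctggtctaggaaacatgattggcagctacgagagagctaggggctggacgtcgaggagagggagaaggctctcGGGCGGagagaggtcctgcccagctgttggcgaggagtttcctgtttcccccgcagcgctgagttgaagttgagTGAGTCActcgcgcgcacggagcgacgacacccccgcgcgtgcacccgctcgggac

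The FN1 entry held 6 GC boxes, several of them overlapping, and 76.7% G and C bases against a median of 62.3% over all entries. The TNC and ZEB1 entries held 1 GC box each, and the TGFBR2 entry held 2 GC boxes and 1 AP-1 match. None of the 4 printed windows held CACCTG on either strand. Other ZEB1 entries did: the one at chr10:31318167-31318466, overlapped in both MR49F lists, held 1 match, and the one at chr10:31318966-31319265, overlapped in MR49F SMARCC2 alone, held 3. These matches describe the letters in the windows and say nothing of what binds there.

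Peaks at the starts fell into 4 patterns. TGFBR2 was overlapped in all 4 lists, which was true of 9.37% of 15843 protein-coding genes with an entry. FN1 was overlapped in both MR49F lists and in neither LNCaP list, as were 11.3% of those genes. ZEB1 was overlapped in the LNCaP SMARCC2 list and in both MR49F lists, and TNC in the LNCaP BRG1 list alone. The entries of ZEB2, VIM and CDH2 were overlapped in no list. Of the 7 members with an entry, 2 were overlapped in each LNCaP list and 3 in each MR49F list. Over all genes with an entry, BRG1 peaks overlapped 26.8% in LNCaP and 40% in MR49F, and SMARCC2 peaks 13.9% and 34.3%.

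Counted over the whole windows, the 10 genes did not share a direction. With each of the antibodies, FN1, TWIST1 and TGFBR2 held more peaks in MR49F, which makes 3 of 10 members beside 53.8% of all protein-coding genes. ZEB2 and CDH1 held more in LNCaP with each antibody, 2 of 10 members beside 3.94% of all genes. The other members went in different directions with the 2 antibodies or were equal with at least 1 of them. With BRG1 alone, 4 members had more MR49F peaks and 5 had more LNCaP peaks, against 58.2% and 20.7% of all genes. With SMARCC2 alone, the counts were 7 and 2, against 79.1% and 6.15%. The counts depended on the peak threshold: with peaks of a −log10 q-value of at least 5, 5 members held more peaks in MR49F with each antibody and 0 held more in LNCaP. CDH1 also left the LNCaP group when only peaks within 10 kb, within the gene or nearest to its ends were counted. TGFBR2 left the MR49F group when only peaks nearest to its ends were counted, and TNC joined that group with the gene span alone.

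**Figure D1:**
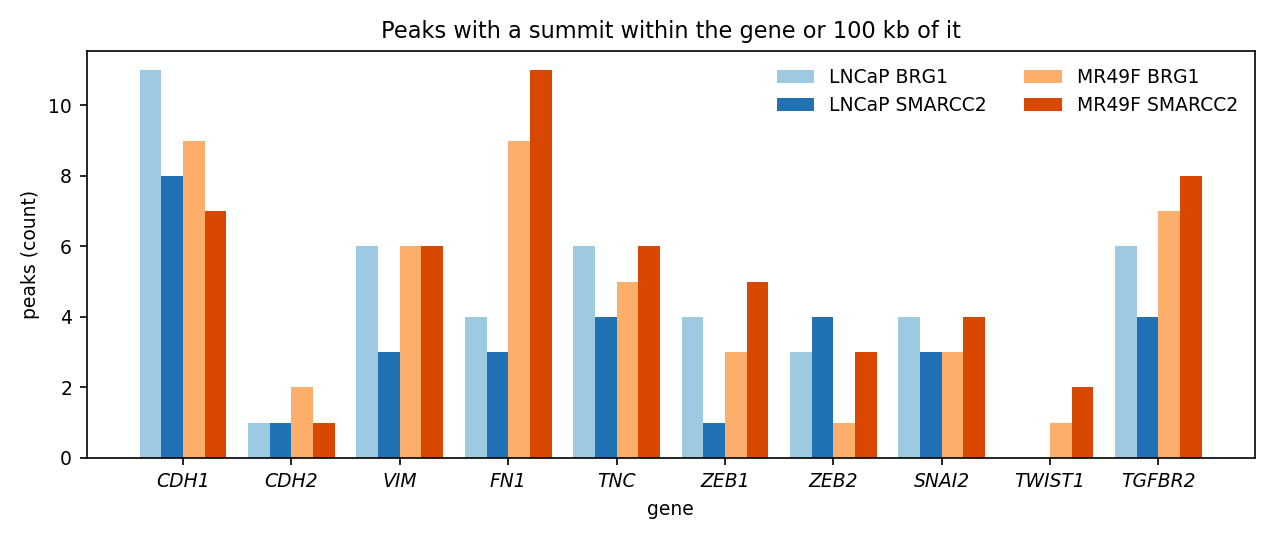
Number of peaks (vertical axis) with a summit in or within 100 kb of each of the 10 genes (horizontal axis), with 1 bar per library: blue for LNCaP, orange for MR49F, pale for BRG1 and dark for SMARCC2. FN1 had 4 and 3 peaks in LNCaP and 9 and 11 in MR49F, while CDH1 had 11 and 8 in LNCaP and 9 and 7 in MR49F.

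Of the BRG1 peaks at the members, 50.5% were MR49F peaks (Wilson 95% interval 40.5% to 60.6%, 91 peaks), beside 55.1% of the complete lists. For SMARCC2 the share was 63.1% (52.4% to 72.6%, 84 peaks), beside 64.9%. Both whole-list shares lay inside the interval of the members, and these intervals cover counting error only. The median fold enrichment of member peaks over local background, as the authors' caller wrote it, was 3.99 and 4.23 for LNCaP BRG1 and SMARCC2 and 5.02 and 5.66 for MR49F. The medians of the full lists were 4.05, 4.22, 4.79 and 5.27 in the same order. Peak strength at these genes was thus near that of the typical peak in each library.

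Overlapping peaks of the 4 lists, with an overlap of 1 bp or more, were merged into 83 regions at the members. All 4 lists had a peak in 18 of them (21.7%, interval 14.2% to 31.7%), against 22.7% of the 65483 regions of the genome. Both MR49F lists and no LNCaP list had a peak in 15 (18.1%, 11.3% to 27.7%), against 18.3%. These are called MR49F-only regions below. Both LNCaP lists and no MR49F list had a peak in 5 (6.02%, 2.6% to 13.3%), against 3.67%, and these are called LNCaP-only. The remaining 45 regions had a peak with a single antibody in at least 1 line; 18 of them were found in LNCaP lists alone, 19 in MR49F lists alone and 8 in both lines. All 3 background shares lay within the intervals of the members.

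MR49F-only regions occurred at 8 of the 10 members, and 70.2% of all protein-coding genes had one. LNCaP-only regions occurred at 3 members (ZEB2, CDH1 and TGFBR2), beside 21.5% of all genes. A region common to all lists occurred at 7 members, beside 74%. Of the MR49F-only regions, 9 of 15 had their strongest summit inside the member gene, as did 4 of the 5 LNCaP-only regions and 6 of the 18 common ones. Over the windows of all protein-coding genes the shares were 22.2%, 27.9% and 25.8% in the same order. Gene length was not matched, and the members span 3.83 to 244 kb. Inside and outside refer to the gene span; exons and introns were not separated here.

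**Figure D2:**
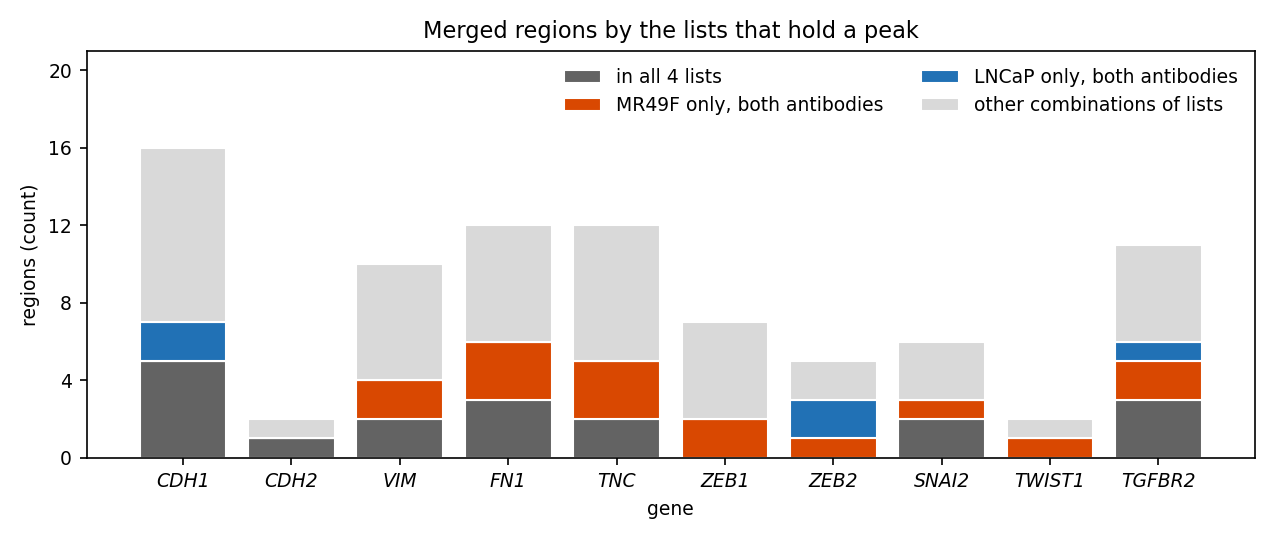
Number of joined regions (vertical axis) at each of the 10 genes (horizontal axis), divided by the lists that had a peak: all 4, both MR49F lists only, both LNCaP lists only, or any other combination. FN1 and TNC have 3 MR49F-only regions each, and CDH1 has 5 regions common to all lists and no MR49F-only region.

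CDH1, the epithelial member, had the most peaks of the 10 genes in both LNCaP lists: 11 for BRG1 and 8 for SMARCC2, beside 9 and 7 in MR49F. It also had the most MR49F BRG1 peaks, together with FN1. The CDH1 peaks formed 16 regions, of which 5 were common to all lists and 2 were LNCaP-only. Only 8 of the 16 regions had CDH1 as the gene with the nearest end. One LNCaP-only region, chr16:68755818-68757099, lay inside the gene, 18.7 kb from its lower-coordinate end, with fold enrichments of 4.60 for BRG1 and 3.39 for SMARCC2. The other, chr16:68731761-68733279, lay 4.20 kb outside that end, between CDH1 and the neighbouring cadherin gene CDH3, and was nearest to CDH3. Its folds were 3.89 and 3.54. Of the common regions, 3 followed each other within the first 10 kb inside that end. The first, chr16:68736559-68739018, reached over the end itself, with folds of 3.70 and 3.89 in LNCaP and 6.59 and 4.72 in MR49F for BRG1 and SMARCC2. Among regions of mixed calls the strongest was chr16:68658847-68659607, a LNCaP BRG1 peak alone, nearest to CDH3, with a fold of 4.69.

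The strongest region of all 10 genes in both MR49F lists lay in CDH1 at chr16:68741155-68745472, a stretch of 4318 bp with its strongest summit 7.63 kb inside the gene. Fold enrichment there was 3.88 for BRG1 and 4.23 for SMARCC2 in LNCaP, and 26.5 and 30.3 in MR49F. The summit pile-up is the number of tags stacked at the summit, solved from the deposited fold and p-value. It carries the caller's scaling, by 0.971 and 0.920 for LNCaP BRG1 and SMARCC2 and by 1 for MR49F. Here it was 116, 126, 129 and 143 in the same order as the folds. The local background, the tag count that the caller set against it, was 29.0 in both LNCaP lists but 3.91 and 3.75 in MR49F. The pile-ups of the lines were therefore close, and the difference in fold lay mainly in the background term. The fold was 6.82 times as high in MR49F for BRG1 and 7.16 times for SMARCC2. Pile-ups with this scaling alone are called raw below and still follow sequencing depth. Each was therefore also divided by the lowest local background of its own list, the floor, which was 3.22, 3.17, 2.62 and 2.39 tags. On this scale the ratio of MR49F to LNCaP was 1.37 for BRG1 and 1.50 for SMARCC2. A background higher in LNCaP by as large a factor was found in 3 of 14869 regions common to all lists for BRG1 and 4 of 14790 for SMARCC2, this one included. Why the background differs was not tested, and the control used for each list is not given in the sources used here.

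The 10 Mb around CDH1 also stood apart in local background. The measure was the median MR49F to LNCaP ratio of background over regions with peaks in both lines for an antibody, relative to all autosomes. It was 0.781 over 121 such regions for BRG1 and 0.754 over 92 for SMARCC2. At the other 9 members it ran from 0.946 to 1.12 for BRG1 and from 0.964 to 1.11 for SMARCC2. The part of this difference in the peak counts at CDH1 was not tested.

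CDH2 had the fewest regions together with TWIST1. There were 1 LNCaP BRG1, 1 LNCaP SMARCC2, 2 MR49F BRG1 and 1 MR49F SMARCC2 peaks, in a window of 444 kb. One region, chr18:27847219-27847889, was common to all lists and lay 85.2 kb beyond the far end of the gene, with folds of 3.61, 3.07, 8.16 and 6.03. The other was an MR49F BRG1 peak 0.928 kb upstream of the annotated start, at chr18:28177668-28178511, with a fold of 5.26 and a pile-up of 18 tags. MR49F SMARCC2 had no peak there.

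VIM had 6, 3, 6 and 6 peaks, given here and below in the order LNCaP BRG1, LNCaP SMARCC2, MR49F BRG1 and MR49F SMARCC2. Only 2 of its 10 regions had VIM as the gene with the nearest end. One of these, chr10:17228756-17231551, lay inside the gene, 1.68 kb from the start, and was common to all lists with folds of 5.37, 3.30, 5.97 and 3.56. Its raw pile-up was higher in LNCaP, at 34.9 and 22.1 tags against 27 and 18 in MR49F, while over the floor the values were close, at 10.9, 6.96, 10.3 and 7.52. The strongest region of the window, chr10:17143740-17145296, lay 84.0 kb upstream, nearest to TRDMT1, with folds of 4.42, 4.61, 11.8 and 19.6. Here the pile-up was higher in MR49F with both antibodies, at 77 and 118 tags against 47.6 and 45.1. Both MR49F-only regions of VIM lay within 10 kb of that distal region, 80.6 and 77.4 kb from the VIM start. The stronger of the pair, chr10:17150409-17151136, had folds of 6.25 and 9.45. The weaker had folds of 3.13 and 3.64, at the top 95.2% and 86.7% of the MR49F lists by q-value. A further region there, chr10:17137049-17138320, had folds of 4.21 for LNCaP BRG1, 8.00 for MR49F BRG1 and 8.84 for MR49F SMARCC2.

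FN1 showed the widest difference in peak number, with 4 and 3 peaks in LNCaP and 9 and 11 in MR49F. All 5 regions inside the gene were found in MR49F lists alone. Over the start, chr2:215435616-215437136 had folds of 5.46 for BRG1 and 5.66 for SMARCC2 in MR49F, with pile-ups of 22 and 27 tags, and no LNCaP peak. This region covers the GC-rich FN1 sequence printed above. The other MR49F-only regions were chr2:215418239-215419528, 17.3 kb downstream of the start with folds of 6.09 and 7.37, and chr2:215397689-215398289, 38.1 kb downstream with folds of 6.12 and 5.26. The 3 regions common to all lists lay beyond the far end of FN1 and were nearest to its neighbour ATIC. The strongest of them, chr2:215267561-215270577, had folds of 3.78, 3.38, 11.2 and 9.50. One region, chr2:215535432-215536343, lay 99.9 kb upstream, just inside the 100 kb limit, and had peaks in all lists but LNCaP SMARCC2. Over the 10 windows, 8 peaks had summits in the last 5 kb inside the limit and 1 in the first 5 kb outside it.

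TNC had 6, 4, 5 and 6 peaks, and the lines were separated by place more than by number. At the start, chr9:115118159-115119434 was a LNCaP BRG1 peak alone, with a fold of 4.03 and a pile-up of 27.2 tags. Inside the gene, 3 regions were MR49F-only, at 10.2, 12.1 and 83.3 kb from the start. The strongest of these, chr9:115034392-115035546, had folds of 5.40 and 7.58. The one at 12.1 kb had a weak BRG1 peak, with a fold of 2.62, at the top 97.5% of its list by q-value. No LNCaP peak had its summit inside TNC. Upstream, chr9:115156125-115156987 was an MR49F SMARCC2 peak alone, 38.3 kb from the start, with a fold of 7.58.

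Both TNC regions common to all lists lay beyond the far end of the gene, and the lines did not differ in the same way at both. At chr9:114980685-114982285, folds were 9.02, 5.67, 3.64 and 5.64 and pile-ups 62.1, 40.5, 20 and 28 tags. Both measures were clearly higher in LNCaP for BRG1, but the SMARCC2 folds were nearly equal. Over the floor, the SMARCC2 pile-up was 12.8 in LNCaP and 11.7 in MR49F. Of the 18 common regions at the members, this was the only one whose pile-up over the floor of its list was lower in MR49F with both antibodies; over the genome 5.21% of common regions were. At chr9:114995395-114997448, folds were 6.53 and 4.74 in LNCaP and 11 and 16.6 in MR49F. The raw pile-ups there were nonetheless higher in LNCaP, at 70.9 and 65.3 tags against 41 and 58, and the local background was 10.0 and 13.0 against 2.82 and 2.55. Over the floor, the values were 22, 20.6, 15.7 and 24.2. The direction at that region therefore depended on the antibody and on whether the fold or the pile-up was read.

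**Figure D3:**
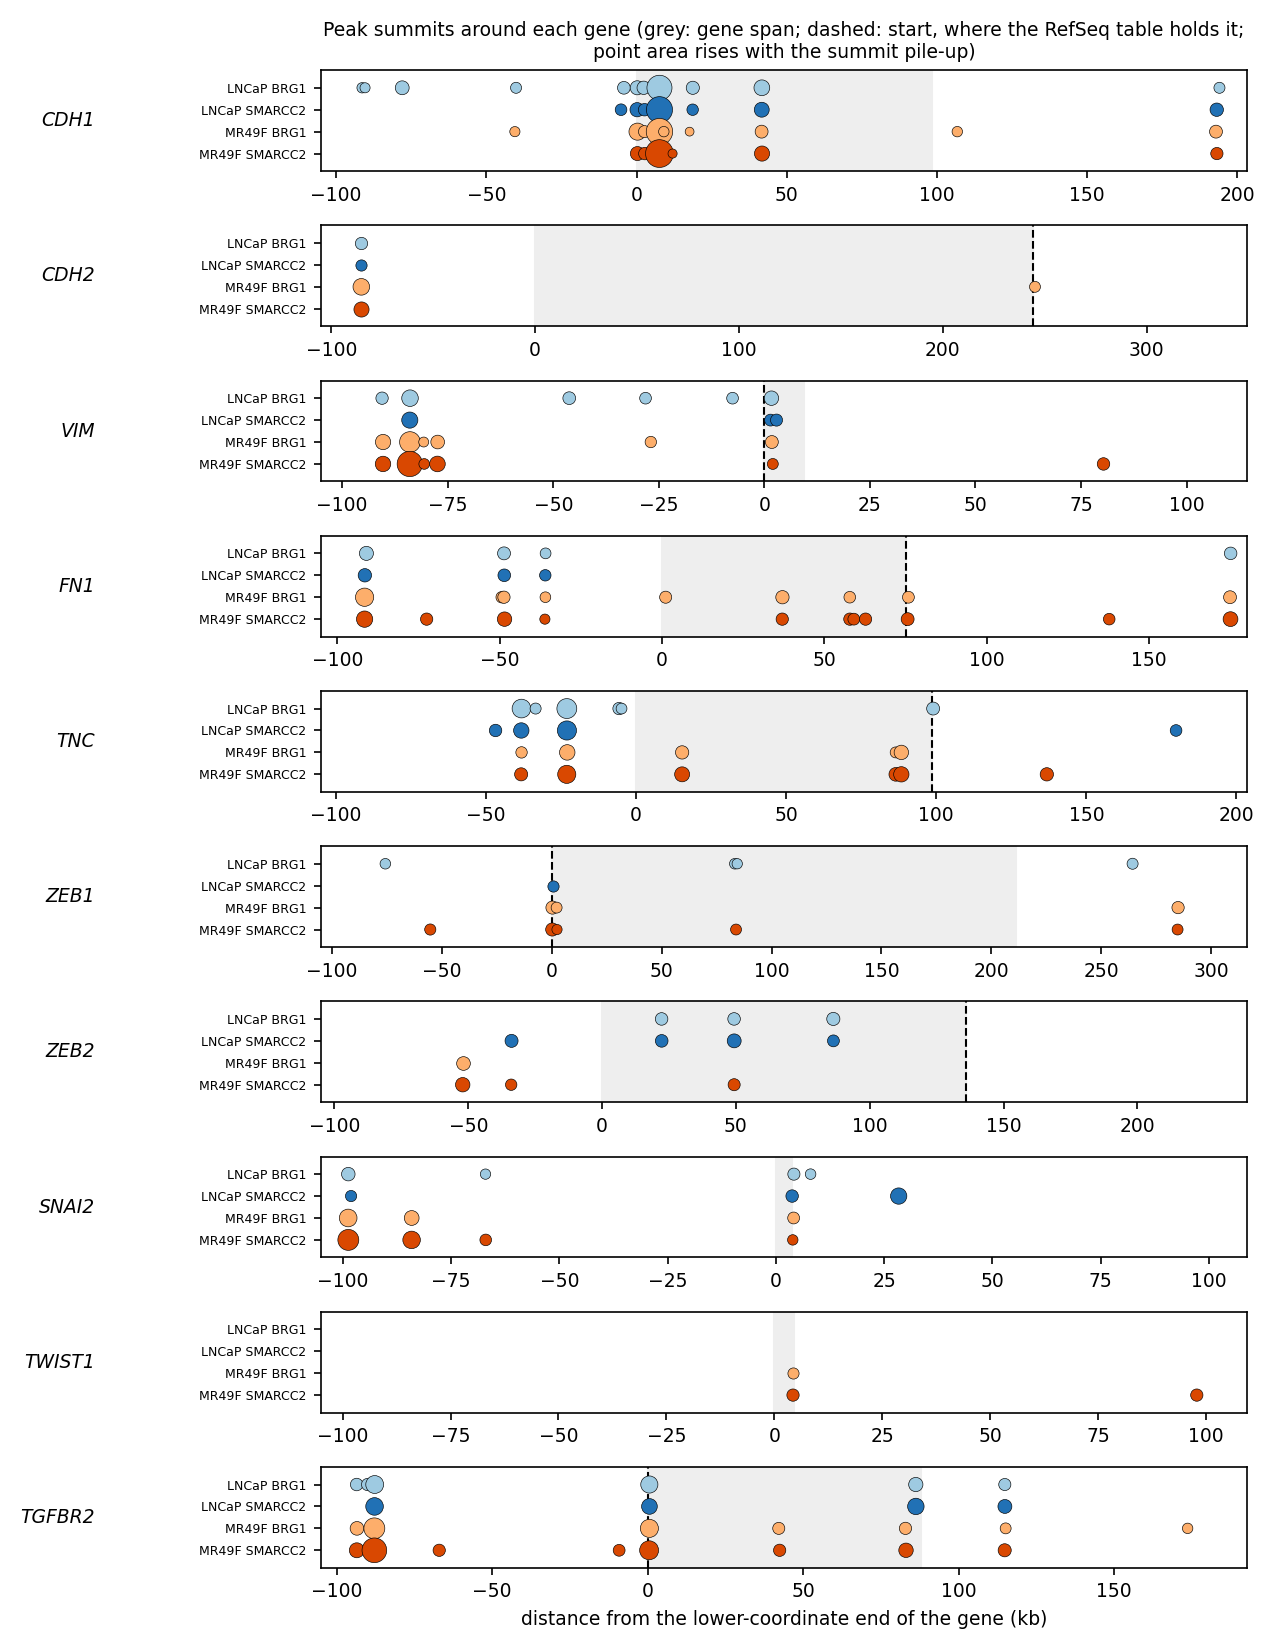
Position of every peak summit at the 10 genes, 1 panel per gene, with distance from its lower-coordinate end in kb on the horizontal axis and the 4 lists on the vertical axis. Shading marks the gene span, a dashed line the start where the RefSeq table holds it, and point area rises with the summit pile-up. FN1 and TNC have summits inside the gene in MR49F rows only, and the TWIST1 rows of LNCaP are empty.

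Among the inducing factors, ZEB1 had 4, 1, 3 and 5 peaks in 7 regions, none of them common to all lists. The start region, chr10:31318366-31318988, was found in LNCaP SMARCC2 with a fold of 3.25 and in MR49F BRG1 and SMARCC2 with folds of 4.84 and 5.64. All 3 summits fell inside the ZEB1 sequence printed above. A neighbouring MR49F-only region, chr10:31320397-31321024, lay 2.18 kb downstream of the outermost start, with folds of 4.19 and 3.79. Both of its peaks overlapped the entry of another annotated ZEB1 start, chr10:31320304-31320603, which no LNCaP list overlapped. The peaks of this region stood at the top 72.4% and 88.4% of the MR49F lists by q-value. A further MR49F-only region, chr10:31602876-31604149, lay 73.6 kb beyond the far end of the gene.

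ZEB2, a paralogue of ZEB1 with the same type of DNA-binding domain, differed from it. Its counts were 3, 4, 1 and 3 peaks, and no list had a peak at its start. Both of its LNCaP-only regions lay inside the gene. The first, chr2:144470032-144470776, was 49.6 kb from the start with folds of 6.91 and 5.53, and chr2:144406081-144406562 was 114 kb from it with folds of 5.76 and 4.46. Between them, chr2:144433133-144433661 had folds of 5.76 and 7.96 in LNCaP and 7.07 in MR49F SMARCC2, with no MR49F BRG1 peak. The only MR49F-only region, chr2:144331416-144333101, lay 52.1 kb outside the gene and was nearest to QTMAN.

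SNAI2, which encodes the repressor Slug, had 4, 3, 3 and 4 peaks. A region common to all lists, chr8:48921033-48922226, lay across the higher-coordinate end of the gene, and its folds of 4.05, 4.31, 5.49 and 4.34 were close to one another. The other common region, chr8:48818098-48819984, was 98.7 kb from the gene, near the limit of the window, with folds of 3.89 and 2.90 in LNCaP and 9.70 and 13.9 in MR49F. Pile-ups there were 30.1, 19.3, 55 and 79 tags, so both measures were higher in MR49F. For SMARCC2, however, the values of the lines come from different places in the region. The LNCaP SMARCC2 peak, chr8:48819502-48819984, had its summit 98.1 kb from the gene, against 98.7 kb in the other lists. It did not overlap the LNCaP BRG1 peak. The MR49F-only region of SNAI2, chr8:48833301-48834404, had the highest folds of that class at any member, 6.33 for BRG1 and 9.98 for SMARCC2, and lay 84.1 kb from the gene. The strongest LNCaP SMARCC2 peak of the window went the other way. It lay at chr8:48945705-48946216, 24.5 kb from the gene, with a fold of 7.11, 46 tags and a place in the top 7.83% of its list, and no other list had a peak there.

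TWIST1 was the only member without any LNCaP peak, with 1 MR49F BRG1 and 2 MR49F SMARCC2 peaks. Its MR49F-only region, chr7:19117024-19117995, covered the higher-coordinate end of the gene, 0.230 kb from the summit. The peaks were weak for their lists: fold 3.33 with 19 tags for BRG1 and fold 4.54 with 24 tags for SMARCC2. In the ranking by q-value they stood at the top 84.7% and 62.0% of their lists. The other SMARCC2 peak, chr7:19210693-19211137, lay 93.3 kb from the gene and nearest to FERD3L, with a fold of 5.74.

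TGFBR2, the receptor, had 6, 4, 7 and 8 peaks and regions of every class. Only 2 of its 11 regions had TGFBR2 as the gene with the nearest end. Most of the others, the start region among them, were nearest to LOC105377015. The TGFBR2 start region, chr3:30606263-30607533, was common to all lists, with folds of 7.44, 6.19, 13.1 and 15.4. Its pile-ups were 51.5, 42.3, 58 and 64 tags. Both measures were higher in MR49F, the fold by more than the pile-up. This region covers the TGFBR2 sequence printed above with its single AP-1 match. A region 87.9 kb upstream, chr3:30517959-30519434, was also common, with folds of 6.49, 6.90, 6.63 and 10.4. Pile-ups there were 56.3, 54.3, 79 and 112 tags, and the local background was 7.82, 7.01, 11.1 and 9.87. The raw pile-up was thus higher in MR49F with both antibodies, while the BRG1 folds were close. Near the far end of the gene the lines parted over a few kilobases. The LNCaP-only region chr3:30692153-30692968 had folds of 7.17 and 9.94, the highest of its class at any member, and stood in the top 10.0% and 4.38% of the LNCaP lists. The MR49F-only region chr3:30688921-30689725 lay closer to the start, 83.1 kb from it against 86.3 kb, with folds of 4.03 and 4.05. A further MR49F-only region, chr3:30648238-30649071, lay 42.5 kb from the start. The strongest region of mixed calls, chr3:30512412-30513375, lay 93.5 kb upstream, with folds of 3.76 for LNCaP BRG1, 6.33 for MR49F BRG1 and 8.42 for MR49F SMARCC2.

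Across the 18 common regions, fold enrichment was higher in MR49F at 14 for BRG1, 15 for SMARCC2 and 12 for both, where 70.2%, 81.3% and 64.6% of all common regions were. The raw summit pile-up was higher in MR49F at 9 for BRG1, 10 for SMARCC2 and 7 for both, beside 63.3%, 72.1% and 55%. Divided by the lowest local background of its list, which scales with depth, the pile-up was higher in MR49F at 11 for BRG1, 15 for SMARCC2 and 9 for both, beside 82.4%, 91.6% and 79.2%. The local background was lower in MR49F at 15 of the 18 for BRG1 and 13 for SMARCC2, beside 62% and 68.2% of all common regions. At 3 regions for BRG1 and 1 for SMARCC2, the fold was higher and the pile-up over the floor lower in MR49F.

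**Figure D4:**
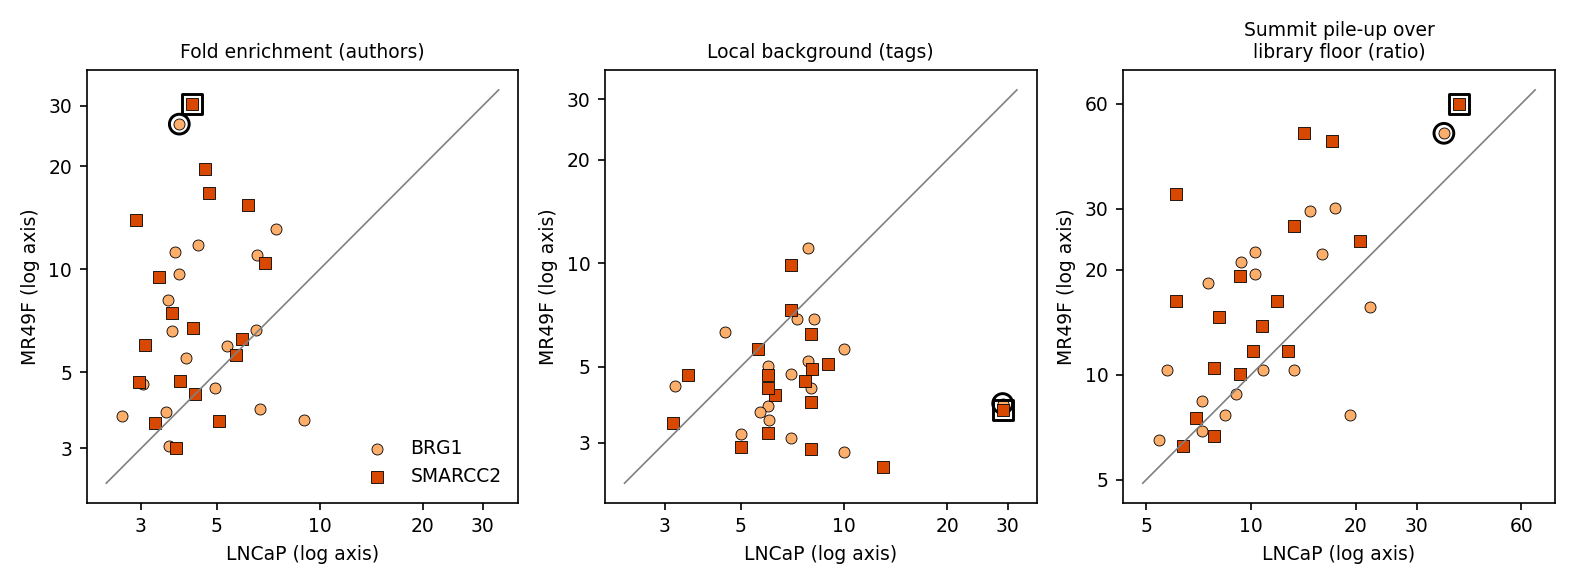
Values in MR49F (vertical, log axis) against LNCaP (horizontal, log axis) at the 18 regions of the members common to all lists, for fold enrichment, local background in tags, and summit pile-up over the lowest local background of the list; circles are BRG1, squares are SMARCC2, and the line marks equal values. The ringed CDH1 region stands far above the line in fold (26.5 and 30.3 against 3.88 and 4.23), far below it in background, and close to the line in pile-up over floor, where it is the highest region in both lines.

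Agreement between the antibodies at the members was near that of the lists. In LNCaP, 53.3% of BRG1 peaks at the members shared a region with a SMARCC2 peak (57.5% of the list), and 83.9% of SMARCC2 peaks shared one with BRG1 (81.2%). In MR49F, the shares were 82.6% for BRG1 (80.4%) and 71.7% for SMARCC2 (76.1%). Libraries of the same line may share an input, so agreement between antibodies is not a replicate.

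ZEB1 and ZEB2 messages are targets of the miR-200 family, small RNAs that hold cells in the epithelial state, so their loci were examined with the same rule. The mature sequences are shown because their seeds, bases 2 to 8 in capitals, fall into 2 groups. They are from RefSeq on GRCh38.p14.
hsa-miR-200b-3p, chr1:1167160-1167181, plus strand: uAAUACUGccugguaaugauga
hsa-miR-200c-3p, chr12:6963742-6963764, plus strand: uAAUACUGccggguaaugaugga
hsa-miR-429, chr1:1169055-1169076, plus strand: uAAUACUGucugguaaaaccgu
hsa-miR-200a-3p, chr1:1167916-1167937, plus strand: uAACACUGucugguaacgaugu
hsa-miR-141-3p, chr12:6964155-6964176, plus strand: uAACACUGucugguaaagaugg

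The first 3 share the seed AAUACUG and the last 2 the seed AACACUG. At the MIR200C and MIR141 cluster, chr12:6960717-6965784 covered the mature sequences of both and had peaks in LNCaP BRG1 with a fold of 4.86, MR49F BRG1 with 6.17 and MR49F SMARCC2 with 3.80. LNCaP SMARCC2 had no peak in it. Nearest to the MIR200B, MIR200A and MIR429 cluster, chr1:1162053-1166284 was common to all lists, its strongest summit 3.73 kb from the cluster. Its folds were 2.97 and 3.05 in LNCaP and 9.58 and 8.35 in MR49F, whereas its pile-ups were 46.6, 38.6, 46 and 37 tags. The raw pile-ups, which are not divided by the floor, were nearly equal between lines at that region. All 5 loci had more MR49F peaks with both antibodies, as did 53.8% of protein-coding genes, but the 5 loci lie in 2 clusters and share their windows. These windows were also dense, with a median of 17 regions beside 8 over all protein-coding genes.

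A wider list of 55 protein-coding genes of the transition gave the setting for the 10. More MR49F peaks with both antibodies were found at 27 (49.1%), and more LNCaP peaks at 1, CDH3, a P-cadherin gene whose window overlaps that of CDH1. By group, the genes with more MR49F peaks were 2 of 8 inducing factors, 5 of 10 TGF-beta signalling genes, 10 of 18 mesenchymal and matrix genes and 10 of 19 epithelial genes. The median MR49F minus LNCaP difference was -0.5 peaks for BRG1 and 2 for SMARCC2 at the 10 members, and 1 and 2 over all genes. Counted gene by gene, the list had 89 MR49F-only regions, and 49 of these lay at epithelial genes, which also had the most regions. A region in the windows of several genes counts for each of them, so these numbers need not be distinct regions. The 49 were among 233 regions counted in this way at epithelial genes, beside 18.3% of all regions being MR49F-only. The genes with the most were ELF3, an epithelial transcription factor, with 6, and CLDN7, a claudin of tight junctions, with 5. OVOL1, a repressor of the mesenchymal state, also had 5. JUP, which encodes plakoglobin, had 4, as did KRT8. CDH3, the claudin gene CLDN1, the splicing regulator ESRP1 and the epithelial factor GRHL2 had the most LNCaP-only regions, 2 each. ESRP1 and GRHL2 also had 2 MR49F-only regions each, CLDN1 had 1 and CDH3 had 0, and the regions of CDH3 are the same as those described at CDH1.

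**Figure D5:**
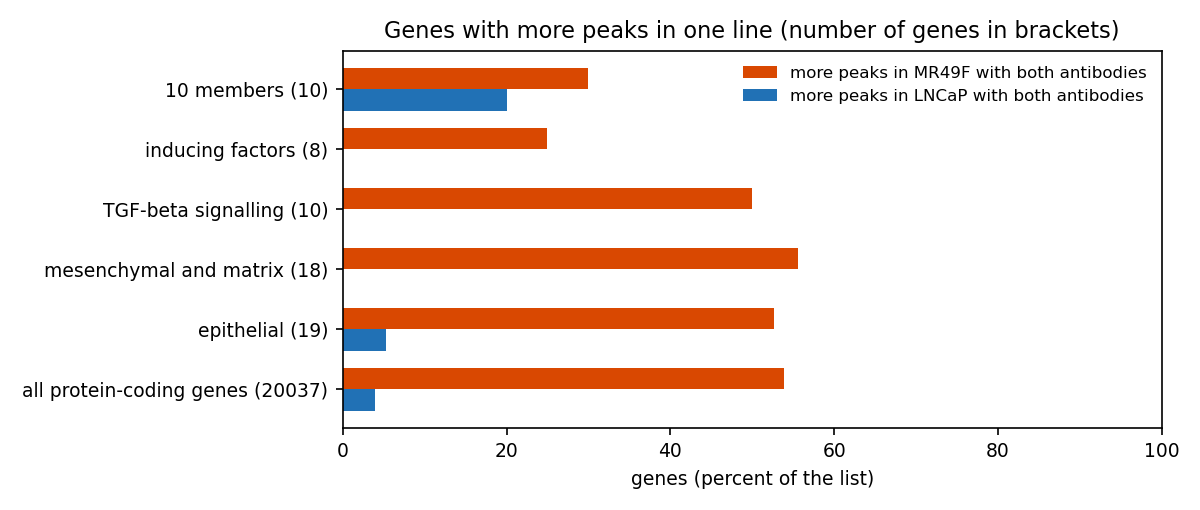
Percent of genes (horizontal axis) with more MR49F peaks (orange) or more LNCaP peaks (blue) with both antibodies, for the 10 members, the 4 groups of the wider list and all 20037 protein-coding genes (vertical axis, number of genes in brackets). The members stand at 3 and 2 of 10 genes, the wider groups at 25% to 55.6% for MR49F, and all genes at 53.8% and 3.94%.

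Markers of cell types were counted with the same windows, gene by gene, so a peak in the windows of several genes counts for each of them. The 10 luminal prostate markers held 134, 89, 152 and 154 peaks, with KLK2 and KLK3 sharing most of their window. The 5 basal markers held 16, 9, 19 and 21, the 9 fibroblast markers 28, 19, 32 and 31, and the 5 leukocyte markers 34, 17, 36 and 30. The median number of regions per gene was 17.5 for luminal, 6 for basal, 5 for fibroblast and 11 for leukocyte markers, beside 8 over all protein-coding genes. Leukocyte markers thus stood above the typical gene too, and these counts do not identify a cell type. Peaks are not expression, and no RNA was measured in these samples.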

How the data were processed

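ChIP-seq peak lists of BRG1 and SMARCC2 in LNCaP and MR49F were used, 1 list per library and 4 in all. Per the submitters' processing notes, the build was hg38 and the tools were MACS2 2.1.0, BWA 0.7.10 and SAMtools, with no roles given. For the control behind each list, duplicate removal and read filters, nothing is given in the sources used here. Per peak, the authors' caller wrote a summit offset, a ratio of signal to local background (the fold enrichment), a −log10 p-value and a −log10 q-value. The deposited display score repeats the −log10 q-value and was not used further. No pooling of libraries is recorded.

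Genes came from a RefSeq table on GRCh38.p14, the same assembly as hg38, and promoter and miRNA sequences from RefSeq tables of that build. The start of a gene was used where the promoter table holds it, and the nearer gene end otherwise. The summit pile-up and local background were solved from the deposited fold and p-value with the caller's formulas, which worked for 99.8% to 100.0% of peaks, depending on the list. The LNCaP pile-ups had been scaled by 0.971 and 0.920 before peak calling, as the steps between values show, and the MR49F ones by 1. The solver was tested on simulated data. Regions are peaks of the 4 lists joined where they share at least 1 bp. Shares have Wilson 95% intervals, which cover counting error only. Total tag counts are not part of the peak lists, so the depth behind a peak is its pile-up.

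With 1 library per group, no test was run and no p-value computed; the design fixed counts and descriptions only. Region and gene counts are set beside the same count over all regions or protein-coding genes. The members and lists were chosen with earlier results of these data known. Named genes were all 10 members and, of the wider list, up to 4 genes per direction with the most MR49F-only or LNCaP-only regions (at least 2). Ties were settled by symbol, and KRT8 is given as well because it tied with JUP. Regions named are, per member, the strongest by q-value in any list of each class, mixed calls included. Further ones were chosen after their values were seen. Alternatives were a −log10 q-value of at least 5, the 10000 strongest peaks, a reciprocal overlap of 50%, summits within 200 bp, windows of 10 kb or the gene span alone, and assignment to the nearest gene end. Python 3.11.15, NumPy 2.4.6, pandas 2.3.3, SciPy 1.17.1 and matplotlib 3.10.9 were used.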

Additional observations from a re-analysis of the deposited data

How the results depend on the processing

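The count of 15 MR49F-only regions at the members became 3 with the 10000 strongest peaks of each list, 9 with the gene span alone and 9 with peaks assigned to the nearest gene end. The 5 LNCaP-only regions became 3 at a −log10 q-value of at least 5. The 18 regions common to all lists became 11 at that threshold, 5 with the 10000 strongest peaks, 10 with a reciprocal overlap of 50%, 7 within 10 kb, 7 with the gene span alone and 9 with the nearest gene end. The MR49F share of SMARCC2 peaks, 63.1%, became 48% among the 25 member peaks left by the 10000 strongest of each list, a setting that by its construction puts the share over the whole lists at 50.1%. Members with more MR49F peaks with both antibodies went from 3 to 5 at a −log10 q-value of at least 5 (FN1, ZEB1, SNAI2, CDH2 and TGFBR2) and to 1 with the 10000 strongest peaks (SNAI2). Members with more LNCaP peaks, 2 in the report (ZEB2 and CDH1), were 0 at a −log10 q-value of at least 5, 1 with the gene span alone (ZEB2), 2 within 10 kb and with the nearest gene end (ZEB2 and VIM in both) and 3 with the 10000 strongest peaks (TNC, ZEB2 and CDH1). The number of MR49F-only minus LNCaP-only regions changed sign for TNC (3 to -1) and TGFBR2 (1 to -1) with the 10000 strongest peaks, and for CDH1 (-2 to 1) with the reciprocal overlap. Of 70 values for single members under the alternatives, 32 stayed the same, 35 moved without reversing and 3 changed sign. The 35 include differences that fell to 0, so the direction did not hold in all of them. The narrower windows and stricter thresholds keep fewer peaks by construction, and the cause of these changes was not tested.

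No paired analysis was possible because each combination of line and antibody has 1 library, and for the same reason no library could be left out. Weak peaks are limited by depth: the lowest pile-ups at the members were 14.6, 19.3, 10 and 11 tags in the 4 lists.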
